A study of Saccharomyces cerevisiae with 48 samples.

Results

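Ribosome biogenesis genes encode the nucleolar and nuclear factors that assemble ribosomes, and 55 of them, chosen by symbol from a list of assembly factors, were followed among the 6256 genes of a budding yeast expression array. Of these, 26 act on the small subunit, 24 on the large subunit and 5 on both. RNA of haploid MATa Saccharomyces cerevisiae was labelled with Cy3 and measured on 48 arrays with 1 colour. All cultures were grown to mid-log phase in rich medium and then incubated for 30 min at 30 °C, either with 5 µM alpha factor, the mating pheromone of MATalpha cells, or without it. The alpha factor groups were 43 segregants, named in the labels as coming from a cross of YJM789 and S96, and the parental lines HS959 and S96. The groups without alpha factor were HS959, S96 and segregant SEG8, 1 array each. The labels do not state how HS959 relates to YJM789. Each strain was measured once per condition. The p-values for alpha factor, and for HS959 against S96, thus measure how the alpha factor change varied between S96, HS959 and SEG8. Those for segregants against parents measure the spread between strains and arrays. Part of either spread may be technical.

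Ribosome assembly begins in the nucleolus, where RNA polymerase I makes a long precursor rRNA. The small subunit processome, built around the U3 snoRNA from the UTP-A, UTP-B, UTP-C and Mpp10 modules, folds and cuts the part that becomes the small subunit rRNA, while other factors, DEAD-box helicases among them, mature the part that becomes the large subunit. In budding yeast these genes are known to move together with growth rate, nutrients and stress, and alpha factor stops MATa cells in G1 while they grow a mating projection.

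The level of a gene is its log2 intensity after subtraction of the array's own 75th percentile, and changes are differences of these log2 levels. All 55 genes were well above background on 48 of 48 arrays and all passed the filter on dim probes. Each gene had 1 probe, so levels cannot be set against each other between genes, and where strains differ in sequence under a probe, that cannot be told apart from unequal RNA. Array medians lay between 9804 and 23353 intensity units. The lowest share of spots above background was 94.0%, on SEG14, and 8 of 8 MATa marker genes were above background on 48 of 48 arrays, as were 4 of 4 MATalpha marker genes, whose level in treated cultures ran between -7.89 and 1.39. These are bulk cultures, in which fewer cells of a type and less RNA per cell cannot be told apart.

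The first comparison asked what alpha factor did to these genes within S96, HS959 and SEG8. Ribosome biogenesis genes fell as a group. By limma's paired fit over 6 arrays, with an adjusted p under 0.05 over 6252 genes as the call, 44 of 55 were lower with alpha factor and 1, NOC3, was higher, where 20.6% of all genes tested were called lower and 15% higher. The median change was -0.47, against -0.04 for all genes, and the medians within strains were -0.41 in S96, -0.39 in HS959 and -0.56 in SEG8. The falls were modest: 13 of the 44 reached 1.5-fold and 0 reached 2-fold. Treated levels did not overlap untreated levels in 47 of 55 genes, where 32.4% of all genes showed no overlap. By sign, 51 of 55 genes were lower in all 3 strains, a count not taken over all genes. The mean change was below 0 in 53 of 55 genes, and in 3439 of the 6252 genes tested. Leaving out 1 strain, with 4 arrays then in the fit, gave 30 lower calls for S96, 12 for HS959 and 1 for SEG8. Over all genes the same fits gave 878, 463 and 349 lower calls. Without SEG8, 5.58% of all genes were called lower, so 1 of 55 is no excess there.

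**Figure D1:**
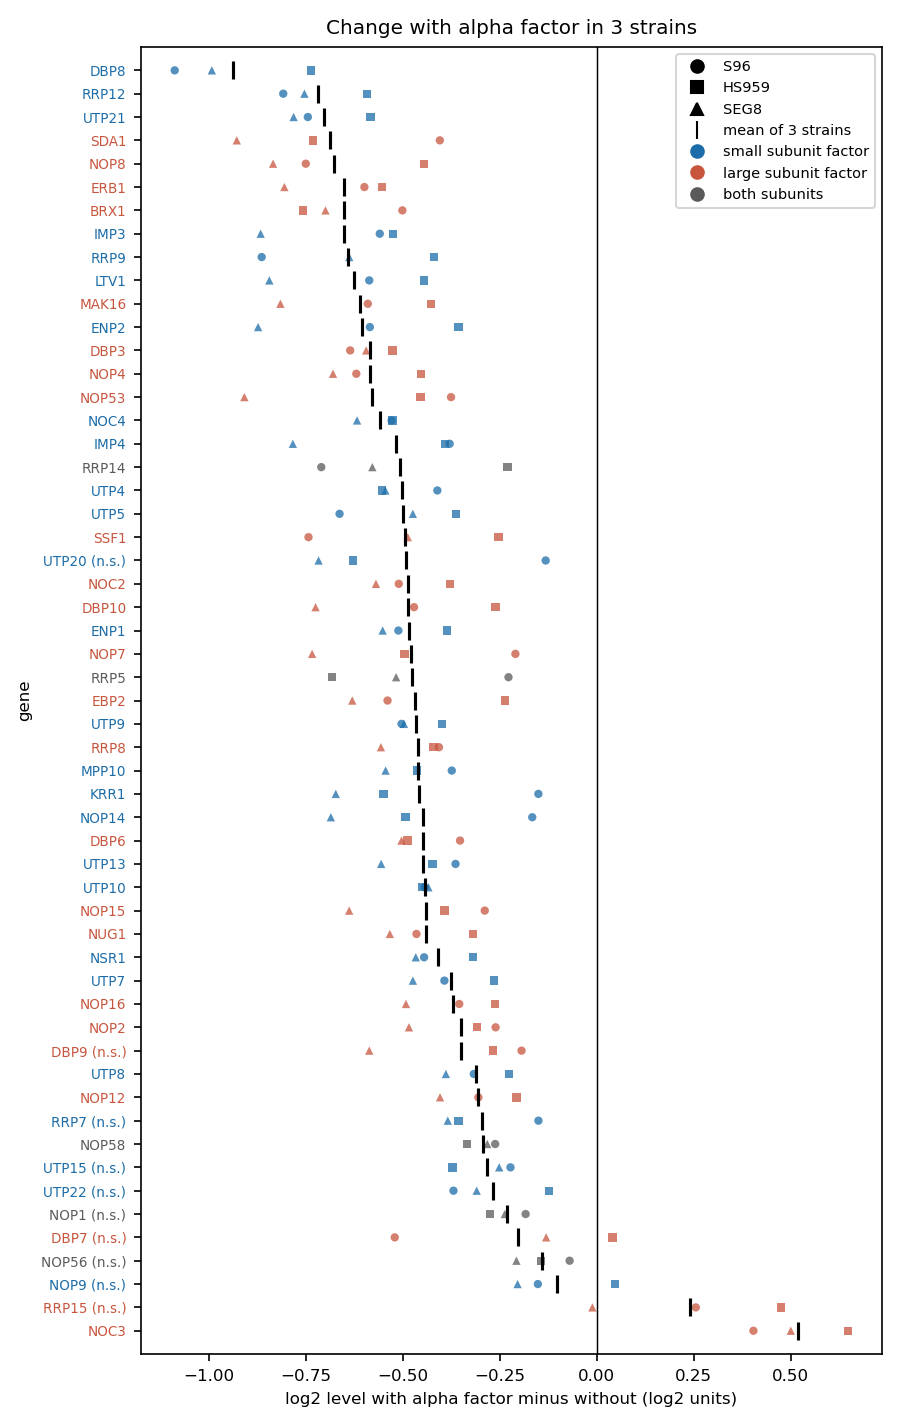
Change of each of the 55 genes with alpha factor (log2 level with minus without, log2 units), with a circle for S96, a square for HS959, a triangle for SEG8 and a bar for their mean; colour gives the subunit and n.s. marks an adjusted p of 0.05 or more. The strains lie left of 0 for 51 genes, from DBP8 with a mean of -0.94 at the top, and only NOC3 lies right of 0 in all 3 strains.

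DBP8, a DEAD-box helicase of the small subunit pathway, fell most. Its level was -1.27 in S96, -0.56 in HS959 and -0.79 in SEG8 with alpha factor, against -0.18 in S96, 0.18 in HS959 and 0.21 in SEG8 without it. All 3 treated arrays were below all 3 untreated arrays. Its change of -0.94 ± 0.18 (SD over 3 strains, limma adjusted p = 0.0057) left 0.52 times the untreated level. RRP12, which helps export both subunits and acts on late pre-40S particles, had levels of -0.19, 0.28 and -0.21 in treated S96, HS959 and SEG8, against 0.62, 0.87 and 0.54 in the untreated arrays. The groups did not overlap, and the change was -0.72 ± 0.11 (SD, n = 3 strains, limma adjusted p = 0.0071).

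The next members of the small subunit pathway were UTP21, of the UTP-B module, and IMP3, of the Mpp10 module that joins U3 snoRNA to its target. UTP21 had levels of -0.75 in S96, -0.40 in HS959 and -0.76 in SEG8 with alpha factor, against 0.00, 0.18 and 0.02 without it, a change of -0.70 ± 0.11 (SD, n = 3 strains). IMP3 had -0.68, -0.32 and -0.67 in the treated arrays, against -0.12, 0.21 and 0.20 in the untreated ones, a change of -0.65 ± 0.19. In both genes every treated array was below every untreated array. Among large subunit factors the largest falls were those of SDA1, needed for export of the large subunit, with -0.69 ± 0.26, and NOP8, a partner of the helicase DBP6, with -0.68 ± 0.20. ERB1, of the PeBoW complex with NOP7, and BRX1, a factor of early pre-60S particles, each changed by -0.65 ± 0.13. ERB1 had levels of 0.13 in S96, 0.08 in HS959 and -0.08 in SEG8 with alpha factor, against 0.73, 0.64 and 0.72 without it. Its groups were well apart, with little spread within either. SDA1 showed the widest spread of the 8 genes, its change being -0.40 in S96, -0.73 in HS959 and -0.93 in SEG8. The 8 genes had limma adjusted p-values of at most 0.018.

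NOC3 went the other way. It encodes a partner of NOC2 in pre-60S transport, and is also known to act at replication origins. Its level was -0.76 in S96, -0.41 in HS959 and -0.27 in SEG8 with alpha factor, against -1.16 in S96, -1.05 in HS959 and -0.77 in SEG8 without it. Each treated array was above every untreated one, by a narrow margin between treated S96 and untreated SEG8. The rise was 0.52 ± 0.12 (SD, n = 3 strains, limma adjusted p = 0.015). Its partner NOC2 fell by 0.49 on the log2 scale.

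Of the 10 genes that did not pass the test, 6 had negative changes in every strain and adjusted p-values between 0.051 and 0.076. These were UTP15 and UTP20 of the small subunit processome, RRP7 and UTP22 of its UTP-C module, the helicase gene DBP9 and NOP1, the methyltransferase of box C/D snoRNPs. KRR1 and NOP14, small subunit factors, passed with adjusted p-values of 0.0499 and 0.0493, the nearest to the threshold. The other 4 were further off. NOP56, a core protein of box C/D snoRNPs, had a change of -0.14 ± 0.07 (SD, n = 3 strains). RRP15, a pre-60S factor, had levels of 0.22, 0.77 and 0.49 in treated S96, HS959 and SEG8, against -0.04, 0.30 and 0.50 untreated, so that it was higher in S96 and HS959 and level in SEG8. DBP7, a helicase of the large subunit pathway, and NOP9, an RNA-binding protein needed for small subunit rRNA, were lower in S96 and SEG8 and not in HS959.

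Small and large subunit factors had nearly the same median change. The early U3 binding factor RRP9 changed by -0.64 ± 0.22 (SD, n = 3 strains), the late pre-40S factors LTV1 and ENP1 by -0.63 ± 0.20 and -0.48 ± 0.09, and NSR1, a nucleolin-like protein, by -0.41 ± 0.08. On the large subunit side the helicase gene DBP3 changed by -0.59 ± 0.06, MAK16 by -0.61 ± 0.20, the GTPase gene NUG1, which acts late, by -0.44 ± 0.11 and the rRNA methyltransferase gene NOP2 by -0.35 ± 0.12. Early and late steps were thus both among the falls. Of 26 small subunit factors 21 were lower and 0 higher, with a median change of -0.47. Of 24 large subunit factors 20 were lower and 1 higher, also with a median of -0.47. The medians differed by -0.0004, small minus large. The class means were -0.49 for small and -0.42 for large subunit factors, and differed by -0.06 in S96, -0.11 in HS959 and -0.04 in SEG8 (SD 0.036 over the 3 strains), so that by means the small subunit factors were slightly lower in each strain. NOC3 counts in the large subunit mean, and the difference between classes was not tested. Of the 5 genes of both subunits 3 were lower, with a median of -0.29.

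Within complexes, 5 of 6 UTP-A genes, both UTP-B genes, all 3 Mpp10 genes and the pair NOP14 and NOC4 were lower. All 3 late pre-40S genes were lower too, with a median of -0.63, as were both PeBoW genes. Both UTP-C genes did not pass the test, at -0.30 and -0.27. The 3 box C/D genes had a median of -0.23, and NOP58 was the one called, at -0.29 ± 0.04 (SD, n = 3 strains). Helicase genes were mixed in size, with 4 of 6 lower and a range between -0.94 for DBP8 and -0.20 for DBP7.

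**Figure D2:**
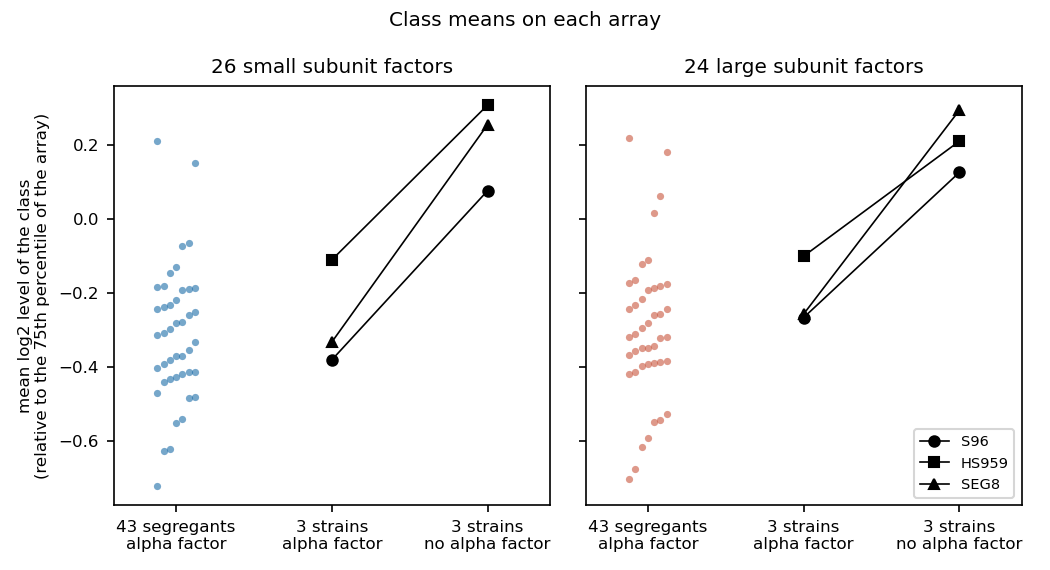
Mean log2 level of the 26 small subunit factors and of the 24 large subunit factors on each array, with 43 treated segregants as dots and S96, HS959 and SEG8 with and without alpha factor as symbols joined by strain. Both classes are lower with alpha factor in all 3 strains, and the segregants spread from below the treated parents up to 0.21 and 0.22 in SEG44.

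The same pathway holds further genes outside the list. Of 40 other small subunit factors 29 were lower and 0 higher, with a median change of -0.47, led by the helicase gene DHR2 at -1.21 ± 0.31 (SD, n = 3 strains) and FAF1 at -1.12 ± 0.25. Of 47 other large subunit factors 38 were lower and 0 higher, also with a median of -0.47, led by ALB1 at -0.80 and IPI3 at -0.73. Both medians equal that of the 55 genes to 2 decimals. Of 17 genes of RNA polymerase I and its factors, 9 were lower and 0 higher, with RPA43 at -0.61 and RRN6 at -0.55. A further 5 snoRNP genes were CBF5, GAR1, NHP2 and NOP10 of H/ACA snoRNPs and SNU13, a box C/D snoRNP protein. All 5 had negative mean changes and 1, GAR1 at -0.38, was called lower, a share near the 20.6% of all genes.

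The RNA exosome trims precursor rRNA. Of 18 genes of the exosome and its cofactors 7 were lower and 1 higher, where 20.6% and 15% of all genes were. Among the called genes the falls were largest for 2 cofactors, TRF5 at -0.72 and the helicase gene MTR4 at -0.63. Of the exosome's own subunits only MTR3, at -0.38, and RRP45, at -0.32, were called lower, while RRP43 rose by 0.54. The cofactor gene AIR1 had a mean of -0.71 and was not called, with -1.43 in S96, -0.29 in HS959 and -0.41 in SEG8. Among 11 regulators of ribosome genes 5 were lower, FHL1 at -0.65 and ABF1 at -0.58 the most, and SCH9, a growth-promoting kinase, rose by 1.1. The 137 ribosomal protein genes, whose products are the ribosome's own parts, had 0 called in either direction and a median of 0.04. Their mean changes differed in sign between strains, with 0.23 in S96, -0.10 in HS959 and -0.01 in SEG8.

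The strains agreed on which genes fell more, to a degree. Over the 55 genes the changes of HS959 and SEG8 correlated with r of 0.82, those of S96 and SEG8 with 0.66 and those of S96 and HS959 with 0.57, against 0.86, 0.84 and 0.80 over all genes; the points share arrays and their scaling. SEG8 had the largest fall of the 3 strains for 37 genes, S96 for 11 and HS959 for 7, counts not taken over all genes. The SEG8 arrays were on slide 2 and those of S96 and HS959 on slide 1. The difference between strains was not tested, since each strain had 1 array per condition.

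The second comparison set HS959 against S96. Most ribosome biogenesis genes were somewhat higher in HS959, with a median difference of 0.23 against -0.09 for all genes. The fitted difference was above 0 in 44 of 55 genes, and in 2514 of the 6252 genes tested. By single arrays 39 of 55 were above S96 in both conditions while 5 were below in both, counts not taken over all genes. Few passed the test, which assumes the same parental difference with and without alpha factor. In the same limma fit 2 of 55 were called higher in HS959, where 6.72% of all genes were, and 1 was called lower, where 13.9% of all genes were. The shift was 0.29 for small and 0.18 for large subunit factors by median. Ribosomal protein genes had a median difference of -0.34, and their mean level was 2.77 and 2.87 in HS959 with and without alpha factor, against 3.28 and 3.04 in S96; the part of this in the result was not tested.

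DBP6, a helicase of early pre-60S particles, was lower in HS959. Its level was -1.89 with and -1.40 without alpha factor in HS959, against -1.06 with and -0.71 without it in S96. Both HS959 arrays were below both S96 arrays, with a difference of -0.76 ± 0.10 (SE, limma adjusted p = 0.011). DBP8 was higher by 0.53 ± 0.12 (SE, limma adjusted p = 0.047), its levels being -0.56 and 0.18 in HS959 with and without alpha factor, against -1.27 and -0.18 in S96. ENP1, a small subunit factor, was higher by 0.43 ± 0.10 (SE, limma adjusted p = 0.045), with 0.28 and 0.67 in HS959, against -0.21 and 0.30 in S96. Both sit close to the threshold: 0 genes were called higher with the fit limited to the 4 parental arrays or after normexp background correction, while 5 were called higher with quantile scaling. DBP6 stayed called in each of these.

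The third comparison asked how the genes varied among the 43 treated segregants. Few of them passed the test for variation. By a one-sided F test of the segregant variance against the residual variance of the paired fit, 8 of 55 varied, where 30.9% of all genes did, and with the 6 slides removed 2 of 55 varied, where 18% of all genes did. The median SD over segregants was 0.25 for the 55 genes, with a range of 0.14 to 0.42, and 0.29 for all genes. The 8 called genes are NOP9, RRP12, UTP10 and UTP13 of the small subunit and NOP16, NOC3, DBP6 and DBP9 of the large subunit. The count was 5 without SEG9 and SEG42. It was 3 when the residual variance was taken without S96, 0 without HS959 and 0 without SEG8. These counts are given without the share of all genes, so they do not show a loss particular to the 55.

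DBP6 and UTP10 were the genes that varied also within slides. The level of DBP6 ran between -2.58 in SEG36 and -0.95 in SEG45, with a median of -1.63 and an SD of 0.36 (n = 43, F test adjusted p = 0.032, within slides 0.047). The parental difference in DBP6, -1.89 in treated HS959 and -1.06 in treated S96, enclosed most segregants: 31 lay between the parents, 11 below both and 1 above both. UTP10, a large protein of the UTP-A module, had a median of -0.24 and an SD of 0.33 (n = 43, F test adjusted p = 0.033, within slides 0.0498). Its parents were close, at -0.27 in HS959 and -0.34 in S96, while the segregants ran between -0.98 in SEG40 and 0.88 in SEG21, with SEG44 next to the top at 0.54.

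The largest SD belonged to DBP9, at 0.42, with -1.74 in SEG36 and 0.67 in SEG9. NOP53, which recruits the exosome to pre-60S particles, NOP14 and SDA1 each had an SD of 0.39 and did not pass the test. MAK16, a pre-60S factor, followed with 0.37, then DBP6, NOP8 and NOP7 with 0.36. The smallest SDs were those of NOP12, a pre-60S factor, at 0.14, NOP1 and NOP58 at 0.15 and NOP56 at 0.16. The 3 box C/D genes were thus among the 4 steadiest of the 55 over segregants, and their falls with alpha factor were small.

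Slide moved with some of this variation. On slide 5, 1 of 6, the 8 segregants split the genes into high and low ones: the mean deviation from the segregant median ran between -0.62 and 0.50 over the 55 genes, with an SD of 0.27, against SDs of 0.06 to 0.13 on the other slides. Over all genes the SD on slide 5 was 0.49, within the 0.33 to 0.53 of the other slides. The median deviation over all genes was -0.08 on slide 5, against -0.01 to 0.04 on the others. Whether the split is particular to the 55 genes was not tested. NOP53 was below its median in 8 of 8 slide 5 segregants, as were NOP9, DBP9 and NOP7. UTP5, of the UTP-A module, was above its median in 8 of 8, and RRP12, DBP8 and NOP8 in 7 of 8. Those arrays had 97.0% to 98.6% of spots above background. These genes were picked out after their values were seen. With slide means removed, 2 of the 8 calls of variation were left.

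Over the 43 segregants most of the 55 genes moved together. The median correlation over their 1485 pairs was 0.54 (n = 43 segregants), against 0.02 for all gene pairs. Of member pairs 94.8% were above 0, against 53.2% of all gene pairs. The points share array and scaling. The median over member pairs was 0.66 with slide means removed, 0.57 with quantile scaling and 0.44 without SEG44 and SEG6. In the last setting 89.2% of member pairs and 53.2% of all gene pairs were above 0. Pairs of small subunit factors had a median of 0.60, pairs of large subunit factors 0.51 and mixed pairs 0.54, so mixed pairs lay between the pairs within a subunit. The class means of small and large factors correlated with r of 0.95 over segregants, and their difference, small minus large, stayed between -0.15 in SEG7 and 0.19 in SEG36.

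Ribosomal protein genes showed no such co-variation with the 55. The median correlation of the 55 genes with 137 ribosomal protein genes was -0.04, and the mean of the 55 correlated with the ribosomal protein mean with r of 0.007 (n = 43). Ribosomal protein genes correlated among themselves with a median of 0.88, which was 0.10 with quantile scaling, so that value depends on how arrays are scaled. FUS1, a mating gene that alpha factor induces, correlated with the mean of the 55 with r of -0.20, and of -0.30 with slide means removed.

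**Figure D3:**
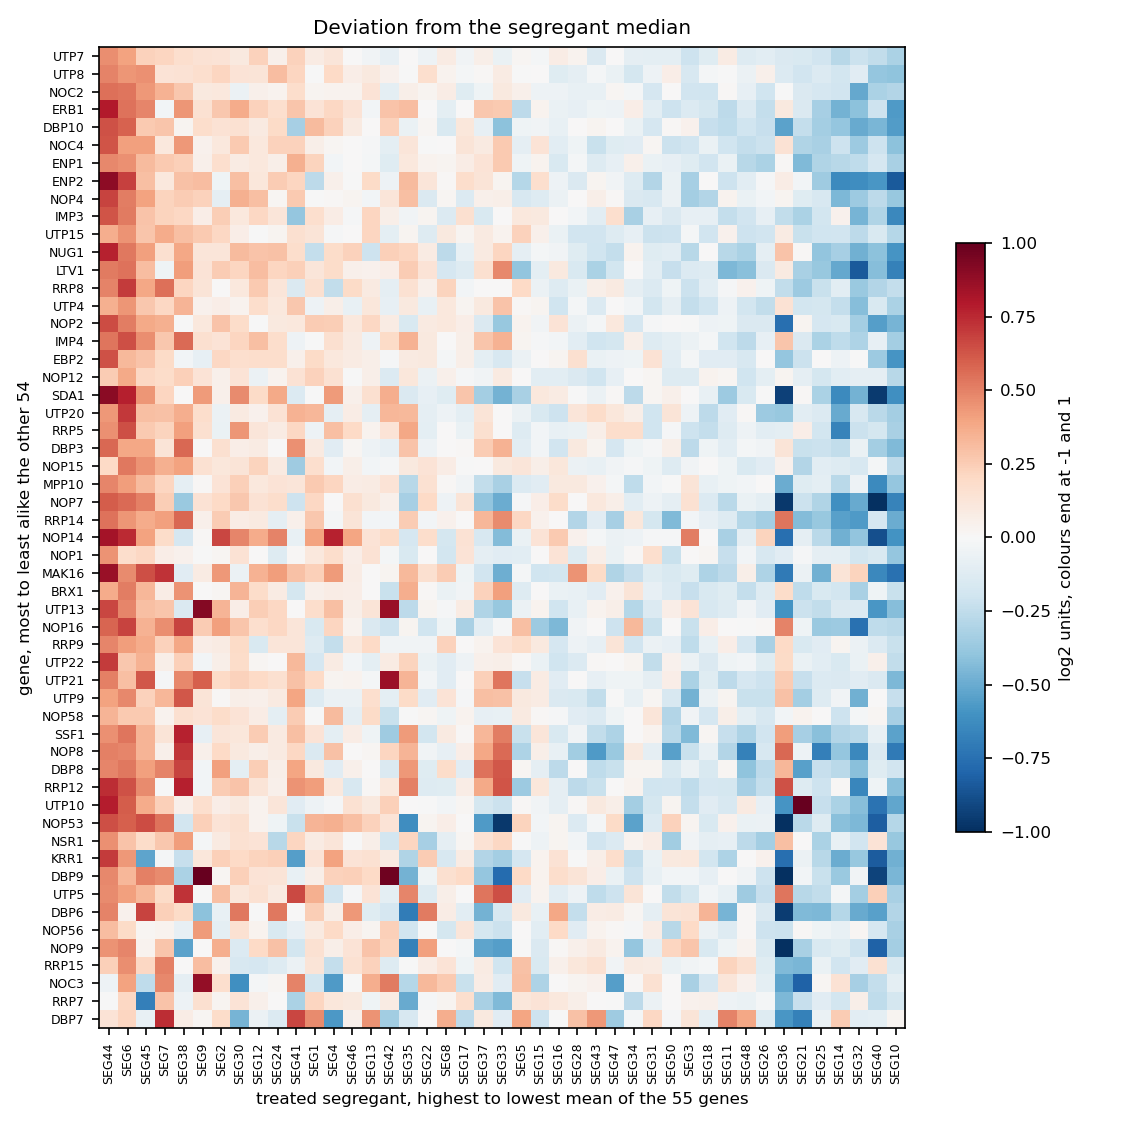
Deviation of each of the 55 genes from its median over the 43 treated segregants (log2 units, red above and blue below, colours ending at -1 and 1), with segregants ordered by the mean of the genes and genes by their correlation with the mean of the other 54. The columns of SEG44 and SEG6 are red for nearly all genes and that of SEG10 is blue, while the lowest rows, down to DBP7 with r of 0.16, differ from the rest.

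The mean of the 55 genes ranged between -0.59 in SEG10 and 0.33 in SEG44, with a median of -0.19 and an SD of 0.18. It was 0.01 in treated HS959 and -0.19 in treated S96, and 21 segregants lay below both parents and 5 above both. SEG44 and SEG6, at 0.33 and 0.28, were the 2 segregants above the lowest untreated array, where the mean was 0.38 in HS959, 0.23 in S96 and 0.37 in SEG8. SEG44, SEG6 and SEG10 are extremes of the mean of these same genes, which in part fixes the following counts. SEG44 was above the segregant median in 53 genes and SEG6 in all 55, while SEG10 was below it in 54. Their FUS1 levels were close to each other and to the segregant median of 1.82, with 1.82 in SEG44, 1.86 in SEG6 and 1.91 in SEG10. SEG45, the next highest at 0.11, had the lowest FUS1 level of the 43, at 1.31. SEG44 and SEG6 were on different slides. With 1 array per segregant, these levels have no replicate.

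UTP7, a small subunit processome gene, was most like the rest, with a correlation of 0.92 with the mean of the other 54 genes over 43 segregants. UTP8, of the UTP-A module, and NOC2 followed at 0.90, then ERB1 at 0.87. The least alike were DBP7 at 0.16, RRP7 at 0.19, NOC3 at 0.27 and RRP15 at 0.46, followed by NOP9 and NOP56. These 6 genes include the 5 with a rise or the smallest falls with alpha factor, NOC3, RRP15, NOP9, NOP56 and DBP7. The 2 measures share the treated SEG8 array, and the same 5 were among the 6 least alike without it. With slide means removed 4 of the 5 were. Over all 55 genes the correlation of likeness with the alpha factor change was -0.49, and -0.59 with slide means removed. Over the other 50 genes, the 5 having been taken out for their change, it was -0.10, and -0.24 with slide means removed.

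**Figure D4:**
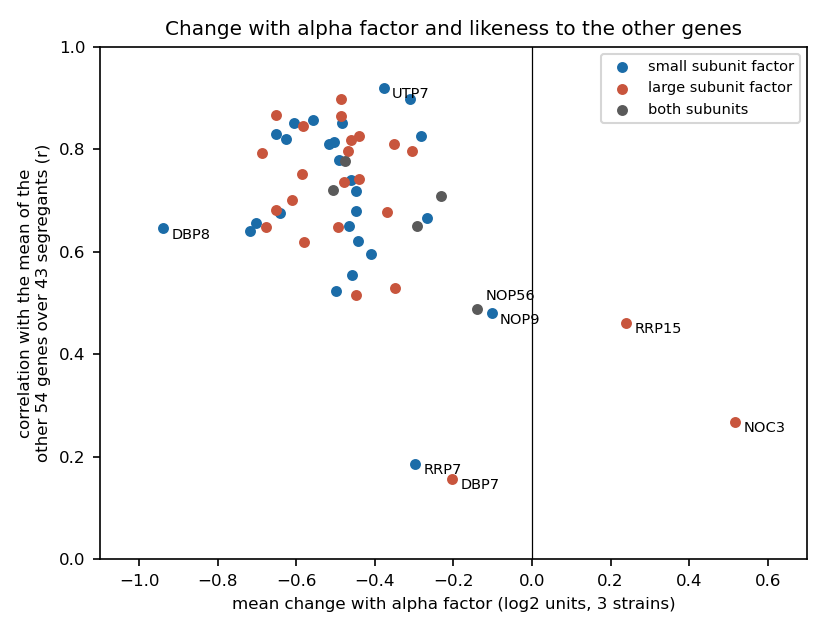
Mean change with alpha factor (log2 units, 3 strains) against the correlation of each gene with the mean of the other 54 over 43 segregants, 1 point per gene, coloured by subunit. NOC3, RRP15, NOP9, NOP56 and DBP7 lie at the right and at correlations of 0.49 or less, and RRP7 is the other gene below that.

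The segregants did not differ from the parents in any called gene. By limma 0 of 55 genes passed, where 0.0321% of all genes did, 2 of 6230, with 3 of 55 and 378 of all genes at an unadjusted p under 0.05. Of those 3, NOP1 was below both treated parents in 42 of 43 segregants, NOP56 in 40 and NOP14 in 38. NOP7, which is not among the 3, was below both in 40. Such counts were not taken over all genes. NOP1 had a segregant median of 1.68 with a range of 1.29 to 2.13, against 1.94 in HS959 and 1.98 in S96. The difference of -0.29 had a limma adjusted p of 0.76. By median the segregants differed from the parents by -0.37 in the 137 ribosomal protein genes and by -0.03 in all genes. Parents lay on slide 1 only, where the 4 segregants had NOP1 levels of 1.78, 1.70, 1.68 and 1.85, all below both parents. NOP14, in contrast, was below both parents in 1 of those 4.

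Chromosome XII carries 5 of the genes, and in 2 segregants they stood out. In SEG9 NOP56, NOC3, DBP9 and UTP13 were the highest of 43 segregants, by 0.43, 0.88, 1.18 and 0.91 over the median, and UTP21, by 0.60, was behind SEG42 and 1 other. In SEG42 the same genes were 0.24, 0.52, 0.97, 0.86 and 0.85 over the median, UTP21 being the highest of 43. All 5 genes were thus high in both. Their median deviation was 0.88 in SEG9 and 0.85 in SEG42, against 0.11 and -0.01 for the 50 genes on other chromosomes. The 493 genes tested in segregants whose names matched to chromosome XII had medians of 0.79 in SEG9 and 0.81 in SEG42, somewhat below those of the 5.

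**Figure D5:**
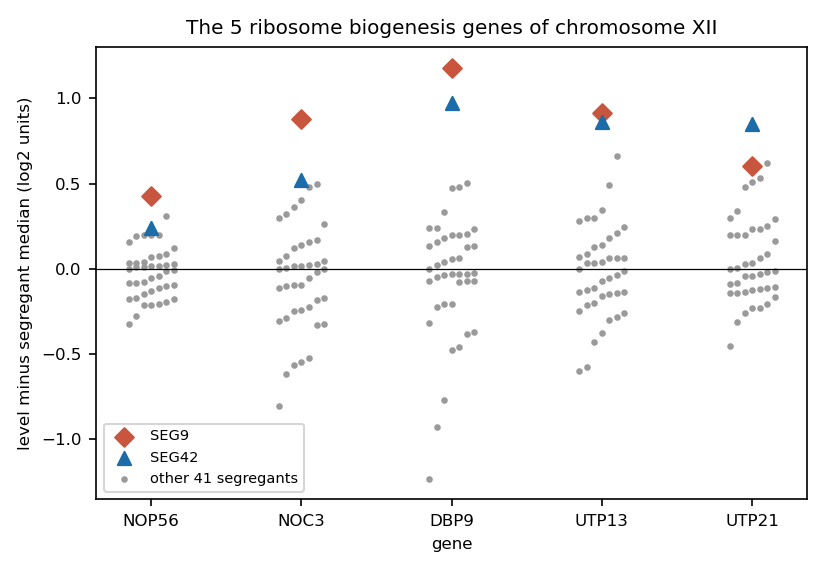
Level minus the segregant median (log2 units) of the 5 ribosome biogenesis genes of chromosome XII, with a diamond for SEG9, a triangle for SEG42 and dots for the other 41 treated segregants. SEG9 and SEG42 hold the 2 highest values of NOC3, DBP9 and UTP13, and SEG9 is highest in NOP56 and SEG42 in UTP21.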

How the data were processed

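Total RNA was labelled with Cy3 and hybridised to 48 Agilent arrays on 6 slides, per the file headers. The deposited intensity is background-subtracted and detrended by Agilent Feature Extraction 10.5.1.1, per the file headers, while the submitters' processing notes name version 9.1. Raw and background intensity and flags of 0 or 1 were also deposited, per the file headers. The authors' value table held the same intensity in 626304 of 626304 cells.

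Control and outlier spots were left out, log2 intensity minus the 75th percentile of each array was taken, and the 2 spots per gene were averaged. The filter asked for a signal well above background on 2 or more of the 6 arrays of the paired fit (6252 genes), and on 22 or more of the 43 segregants for tests over these (6230 genes). limma 3.58.1 in R 4.3.3 fitted alpha factor with strain as the pairing block, taken from the labels, which leaves 2 residual degrees of freedom and 2.62 from the prior; changes of 2 strains correlated with r of 0.80 to 0.86 over all genes. HS959 minus S96 came from the same fit, which assumes the same parental difference in both conditions and has no replicate of either line within a condition. Segregant variance was tested with an F test. p-values were adjusted by Benjamini-Hochberg, with 0.05 as the threshold. The steps were tested on simulated data.

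Names matched the R64 reference table for all 55 genes, and for 5756 array names with 500 not matched. Chromosomes are taken from that table, and gene sequences were not analysed here. The members and lists were chosen with earlier results of these data known. Named are the 8 largest falls, every rise, the genes not called, the calls between parents, the 8 largest and 4 smallest segregant SDs, the 4 highest and 4 lowest correlations, the chromosome XII members and the 2 largest calls of other lists. Other scalings, normexp, outlier spots kept, no filter, strains left out, no block and slide terms were tried. Values without SEG44 and SEG6, SEG14, or SEG9 and SEG42 were in part added after seeing the data. The number of arrays limits the precision.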

Additional observations from a re-analysis of the deposited data

Results flagged for a closer look

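For 3 genes the strains differed in the sign of the change with alpha factor. The difference was not tested, since each strain had 1 array per condition. NOP9 changed by 0.0469 in HS959, against -0.15 in S96 and -0.20 in SEG8. DBP7 changed by 0.0404 in HS959, against -0.52 in S96 and -0.13 in SEG8. RRP15 changed by -0.0114 in SEG8, against 0.26 in S96 and 0.48 in HS959.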

How the results depend on the processing

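Without the strain as a replicate block, 8 genes were lower with alpha factor and 0 higher, in place of 44 and 1, while 337 of all genes were lower in place of 1285. With 1 strain left out, which leaves fewer arrays, 349 to 878 of all genes were lower and 237 to 739 higher. Of the ribosome biogenesis genes 1 to 30 were then lower and 0 to 1 higher. The median change kept between -0.51 and -0.41 over all settings, and the other scalings, normexp, outlier spots kept and no filter gave 37 to 44 lower calls. The difference of median changes, small minus large, ran between -0.0302 and 0.0505 with 1 strain left out. Genes higher in HS959 numbered 5 with quantile scaling, 0 with normexp and 0 without SEG8, in place of 2; the cause was not tested. Genes varying among segregants numbered 5 with quantile scaling, 2 with slide as a term, 5 without SEG9 and SEG42 and 0 to 3 with the residual variance from fewer strains, in place of 8. With slide as a term 1119 of all genes varied, in place of 1926. For variation, the counts in the other settings are given without that of all genes. The difference of medians, -0.0004 with the reported settings, was also above 0 with quantile scaling, at 0.009, and with normexp, at 0.0348, so it has no settled sign. No called gene turned its direction. Nor did the ribosome biogenesis genes in their median change, median difference between parents or median pair correlation. The median correlation over all gene pairs, 0.02, was -0.002 with quantile scaling. The r of the ribosome biogenesis mean with the ribosomal protein mean ran between -0.16 and 0.02 over the settings. The median change of ribosomal protein genes was 0.24 in S96, -0.09 in HS959 and -0.01 in SEG8, so it has no settled sign either. With 1 array per strain and condition, a change in a single strain has no test, and low residual degrees of freedom limit every call.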
